A study of Danio rerio with 114 samples.

Results

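The RNA of wild-type zebrafish embryos was sequenced after selection of polyadenylated RNA (polyA libraries) and after removal of ribosomal RNA only (rRNA-depleted libraries, called RiboMinus in the series). The comparison used 24 of the 114 samples of the series, chosen by their labels: 12 polyA and 12 RiboMinus libraries of wild-type embryos, with 3 of each kind at each of 4 stages. The stages were 2-cell (E1), 64-cell (E2), 1000-cell (E3) and sphere (E4). All 24 libraries came from untreated embryos of the TLAB strain, a cross of the AB and TL stocks, and each was made from a pool of embryos. The series was made to compare these embryos with *ski7* mutants, and the *ski7* mutant embryos (24 libraries) and wild-type oocytes of stage IV-V (O4, 6 libraries) were used only where named.

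Most mRNAs carry a tail of adenosines at the 3' end, which poly(A)-binding proteins coat and which oligo(dT) captures. In eggs and early embryos the nucleus is transcriptionally silent, and the length of the tail is set in the cytoplasm: deadenylases shorten it on stored mRNAs, and cytoplasmic poly(A) polymerases lengthen it on mRNAs that are recruited to ribosomes. An mRNA with a short tail can therefore be present in total RNA and be poorly captured by polyA selection. At the midblastula stages the embryo's own genome is switched on, and maternal mRNAs begin to be cleared. RNAs that never carry a long tail, such as replication-dependent histone mRNAs, the RNA of the signal recognition particle (SRP) and small nucleolar RNAs, are kept mainly by rRNA depletion. The term polyA capture is used here for the log2 ratio of a gene's level in polyA libraries to its level in RiboMinus libraries of the same stage. Levels are scaled between libraries (TMM), so a capture of 0 marks equal scaled levels and not equal shares of reads. At E1 the scaling factors differ between the kinds of library, and a gene with a capture of 0 there takes a smaller share of polyA reads. Capture is a relative measure within a stage, and a change in the total mass of polyadenylated RNA cannot be seen in it.

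The polyA libraries held 7136712 to 40310528 reads on genes (median 10499849) and the RiboMinus libraries 1778744 to 6047480 (median 3376997.5). A count of 3 reads in a single library was worth 0.0744 to 0.420 CPM (reads scaled to library size) in polyA libraries and 0.496 to 1.69 CPM in RiboMinus libraries. The floor used for genes without reads was 3 reads over the 3 libraries of a group together, which is lower in CPM. The scaling factors (TMM) of the E1 polyA libraries were 0.709 to 0.745, and those of the other libraries 0.932 to 1.07. Summed markers of blood (at most 5.09 CPM), of liver and yolk proteins (at most 0.776 CPM) and of sperm and testis (12.1 to 34 CPM) were low in all libraries. The summed follicle cell markers stood at 712 to 798 CPM in E1 polyA libraries and at 142 to 334 CPM elsewhere. One gene of that list carried the sum, *cyp11a1* (ENSDARG00000002347), whose own capture was 1.36 at E1 and -0.59 at E4.

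The kind of library was visible in classes of RNA whose tails are known. The 17 replication-dependent histone genes took 0.222 to 0.348% of RiboMinus reads and 0.000858 to 0.00272% of polyA reads, and 683 genes of small structured non-coding RNAs took 0.634 to 0.960% and 0.000565 to 0.00570%. The 13 mRNAs of the mitochondrial genome, which carry short tails added inside the mitochondrion, took 3.21 to 4.86% of polyA reads at E1, 1.82 to 2.71% at E4, and 0.941 to 1.53% of RiboMinus reads over the 4 stages. The 2 kinds of library did not overlap at any stage in any of these 3 classes.

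**Figure D1:**
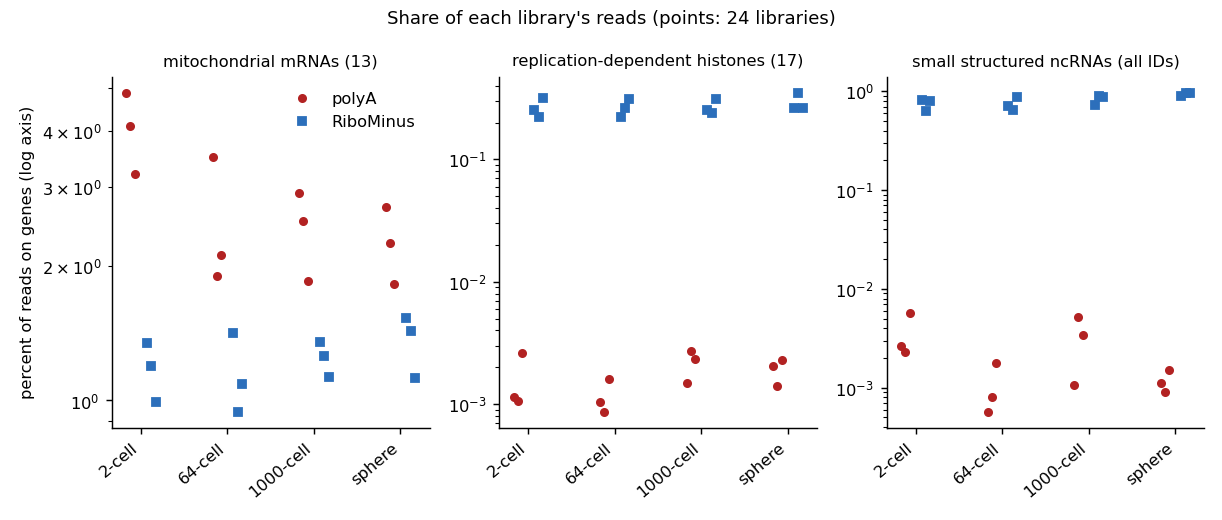
Share of reads on genes (percent, log axis) taken by mitochondrial mRNAs, replication-dependent histone mRNAs and small structured non-coding RNAs at E1 to E4, with a point for each library. Histone and small non-coding RNAs lie far lower in all 12 polyA libraries, and mitochondrial mRNAs lie higher in polyA than in RiboMinus libraries.

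Capture was most uneven in the youngest embryos and evened out over cleavage. Of 9597 genes tested, 2049 (21.4%) were over-captured and 2919 (30.4%) under-captured at E1, by at least 2-fold and at an adjusted p under 0.05 (edgeR quasi-likelihood test). At E2 the counts were 533 over-captured (5.55%, 804 with a filter at 1 CPM and 928 with none) and 1787 under-captured (18.6%), at E3 325 (3.39%) and 1249 (13%), and at E4 210 (2.19%) and 849 (8.85%). The share of genes within 2-fold of even capture was 46.7% at E1, 74.6% at E2, 82.5% at E3 and 88.2% at E4. The median capture was -0.13 at E1 and 0.02 at each later stage. The split at E1 depended on the scaling between the libraries. With scaling by library size alone the median capture at E1 was -0.68, and 946 genes were over-captured and 4029 under-captured, so that 19% of the calls were over-captured against 41.2% with the TMM scaling. Values are given on the TMM scale, and values on library size alone stand beside the main counts that they move by over 1.5 times. The 24 lists of protein-coding genes described here hold 982 entries, of which 773 passed the filter on low counts. A gene ID on several lists is an entry in each of them, so the lists are not independent. Each count of members is over those that passed. Ribosome biogenesis, spindle, cyclin, splicing, tRNA synthetase and recombination lists were chosen after the values were seen. Their counts describe these data and are no test of the families.

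**Figure D2:**
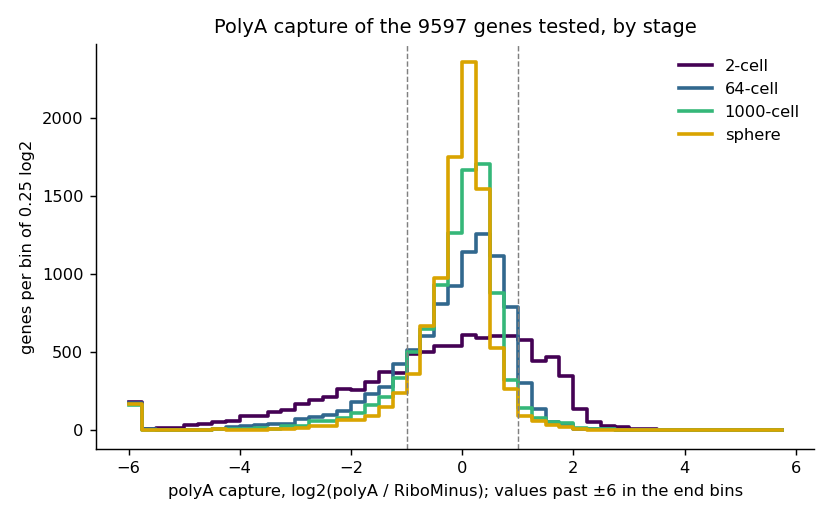
Number of genes (of 9597 tested) by polyA capture, in bins of 0.25 log2, with a line for each stage and dashed lines at 2-fold; genes past 6 in either direction stand in the end bins. The E1 distribution is broad, with 46.7% of genes inside the dashed lines, and those of E2, E3 and E4 are narrower in turn, up to 88.2% at E4.

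RNAs without a poly(A) tail were held mainly by the RiboMinus libraries at all 4 stages. Of 17 replication-dependent histone genes, whose mRNAs end in a stem-loop, 16 passed the filter on low counts, and they passed it through the RiboMinus libraries, so their direction was fixed by the filter and is given as a description, with a median capture of -7.16 at E1 and -7.67 at E4. *hist1h4l*, which encodes histone H4, was at 0.255, 0.545 and 1.14 CPM in the E1 polyA libraries and at 141, 139 and 175 CPM in the E1 RiboMinus libraries, 270 times lower (counting interval 181 to 422). *h2ax*, which encodes the histone variant that is phosphorylated at DNA breaks and in mammals is made as both a stem-loop and a polyadenylated mRNA, was at 2.17, 2.01 and 3.6 CPM against 276, 330 and 321 CPM at E1 and at 1.63, 1.57 and 1.82 CPM against 303, 327 and 308 CPM at E4. Its capture was -7.03 ± 0.17 (SE) at E1 and -7.53 at E4, like that of the stem-loop histones. Its polyA levels at both stages lay under the 10 CPM of the filter and its RiboMinus levels above it. Its direction was therefore fixed by the filter too and is given as a description. Of the 8 tested histone variants with polyadenylated mRNAs, *h2ax* included, 6 were over-captured at E1 and only *h2ax* was under-captured. The 6 included *h3f3d*, which encodes the replacement histone H3.3 (2.43 ± 0.21), and *h1m*, the maternal linker histone (1.93). The shares at E1 over all genes tested were 21.4% over-captured and 30.4% under-captured.

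Of 683 genes of small structured non-coding RNAs, 38 passed the filter, again through the RiboMinus libraries, so their low capture was fixed by the filter and is given as values. Their median capture was -7.69 at E1 and -9.66 at E4 (-7.75 and -9.42 with genes at the floor set to their bound). With that bound it was -9.23 at E2 and -8.27 at E3, so it did not fall step by step. These genes held 1514 reads in the polyA libraries and 78116 in the RiboMinus libraries at E1, and 292 and 75744 at E4. In polyA libraries they held 296 reads at E2 and 864 at E3. *rn7sl1*, which encodes the SRP RNA, was at 4.59, 3.44 and 12.9 CPM in E1 polyA libraries against 1607, 1126 and 1466 CPM in E1 RiboMinus libraries (288.9 times lower, counting interval 251.7 to 333.2). At E4 it was at 0.699, 0.782 and 1.24 CPM against 1911, 1738 and 1763 CPM (1940 times lower, counting interval 1333 to 2945). At E2 and E3 *rn7sl1* was 2018 times (1404 to 3014) and 535.3 times (441.1 to 656.2) lower. *rmrp*, the RNA of a ribonuclease that processes ribosomal RNA, was 286.5 times lower at E1 (214.3 to 392.1) and 1036 times lower at E4 (605 to 1947). At E2 and E3 *rmrp* was 3845 times (1500 to 14120) and 986.8 times (607.1 to 1728) lower. A copy of *metazoa_srp* (ENSDARG00000109767) had 3, 10 and 8 reads in the E1 polyA libraries and none in the E4 polyA libraries, against 236, 718 and 389 reads in the E4 RiboMinus libraries, at least 1552-fold lower. Capture of 13 of the 38 fell from E1 to E4 (8 with library size alone and 21 with the replicate number as a block). Over all genes tested 17.7% fell. Copies of *metazoa_srp* and *snora73* are nearly identical and the counts hold uniquely mapped reads, so the split between copies is uncertain.

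The gene with most reads in all 12 RiboMinus libraries, ENSDARG00000080337, has no symbol in the tables used and took 0.944 to 1.78% of their reads. Its capture was -1.11 at E1, -2.80 at E2, -2.04 at E3 and -2.77 at E4.

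At the 2-cell stage the over-captured genes included mRNAs for nuclear RNA-binding proteins, cytoplasmic ribosomal proteins and mitochondrially encoded subunits. Of 57 tested genes of heterogeneous nuclear ribonucleoproteins (hnRNPs) and splicing factors, 42 were over-captured and 3 under-captured at E1, with a median of 1.82 against -0.13 over all genes tested (33 over-captured and a median of 1.27 with library size alone). This family was chosen after the values were seen, and over all genes tested 21.4% were over-captured and 30.4% under-captured. *hnrnpm*, which binds pre-mRNA, was at 1020, 985 and 978 CPM in E1 polyA libraries and at 103, 115 and 114 CPM in E1 RiboMinus libraries. Its capture was 3.17 ± 0.08 (adjusted p = 3e-17), and 1.86 ± 0.08 at E4. The groups stayed apart at E4, with polyA libraries at 463, 485 and 451 CPM against 128, 131 and 126 CPM in RiboMinus libraries. *hnrnpa1a* (3.29 ± 0.18) and *taf15* (3.90 ± 0.20), both RNA-binding proteins of the same kind, were over-captured at E1, as was *hmga1a*, an architectural chromatin protein (3.72 ± 0.25).

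The over-captured gene with the largest value at E1 among those with a symbol was *sec24c*, which encodes a subunit of the coat of vesicles that leave the endoplasmic reticulum. It was at 1606, 1554 and 1431 CPM in polyA libraries and 56.2, 75.7 and 73.2 CPM in RiboMinus libraries at E1. Its capture was 4.48 ± 0.16 (adjusted p = 3.21e-15) at E1, 3.49 at E2, 3.18 at E3 and 2.88 at E4, where the libraries stood at 590, 639 and 599 CPM against 87.0, 91.6 and 69.9 CPM. The kinds of library were far apart at both stages, and the gap narrowed on the polyA side.

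Of 68 cytoplasmic ribosomal protein genes, 38 were over-captured and 2 under-captured at E1, with a median of 1.1. With library size alone 15 were over-captured and 5 under-captured (median 0.55). All genes tested had shares of 21.4% over-captured and 30.4% under-captured, and counts of 946 and 4029 of 9597 with library size alone. *rps14* was among the over-captured (2.13) and *rplp2* among the under-captured (-1.14). Of 13 mitochondrial mRNAs, 12 were over-captured at E1 (median 2.11) and none was under-captured. *mt-nd2*, a subunit of respiratory complex I, was at 4465, 3608 and 2508 CPM against 451, 345 and 461 CPM at E1 (3.07 ± 0.33). The exception was *mt-nd6*, the only one of the 13 encoded on the light strand, whose human mRNA lacks a poly(A) tail. It was at 261, 206 and 87.3 CPM in polyA and 205, 171 and 192 CPM in RiboMinus libraries at E1, a capture of -0.03 ± 0.36 (adjusted p = 0.951), and its polyA libraries spread on both sides of the RiboMinus libraries. At E4 it was at 69.1, 89.1 and 45.2 CPM against 240, 403 and 181 CPM and was under-captured (-2.02 ± 0.38, adjusted p = 0.000267).

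Genes whose mRNAs are known from vertebrate oocytes to gain adenosines in the cytoplasm were over-captured in 8 of 11 cases at E1 (median 1.46), and none was under-captured (4 of 11 over-captured, median 0.91, with library size alone). *ccnb1*, the mitotic cyclin B1, was at 6499, 5671 and 5820 CPM in polyA libraries against 1352, 1162 and 1488 CPM in RiboMinus libraries (2.17 ± 0.11, adjusted p = 2.28e-13). At E4 it was at 2570, 2226 and 2258 CPM against 1256, 1506 and 1319 CPM (0.79). *ccna2* (1.78), which encodes cyclin A2, and *cdc20* (1.68), an activator of the anaphase-promoting complex, were over-captured too. Cyclins and cyclin-dependent kinases as a family had 8 over-captured and 5 under-captured of 19 (median 0.99; 6 and 7 with library size alone). Among maternal transcription factors that act in genome activation, 4 of 12 were over-captured and 1 under-captured at E1 (median 0.60). Over all genes tested 21.4% were over-captured and 30.4% under-captured at E1. *nanog*, a pioneer factor of genome activation, was at 3860, 3156 and 3398 CPM against 1079, 1078 and 1104 CPM (1.67 ± 0.08, adjusted p = 1.85e-13). Its partner *pou5f3* had a capture of 0.90 and *sox19b* of -0.38, both under 2-fold (*pou5f3* 1.02 with the size factors of DESeq2).

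Among maternal patterning genes 8 of 14 were over-captured and 4 under-captured at E1 (median 1.29). The shares over all genes tested were 21.4% and 30.4%, so the under-captured share of this list was near that of all genes. The transducers of TGF-beta signalling *smad5* (1.93 ± 0.07) and *smad2* (1.6) and the beta-catenin gene *ctnnb2* (1.77) were over-captured, as was *grip2* (2.76 ± 0.28), which acts in dorsal determination. *hwa*, the maternal dorsal determinant huluwa, was under-captured at E1 (-2.28 ± 0.20) and at E4 (-1.57), and so was *sybu*, a kinesin adaptor (-1.73 and -2.21).

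The under-captured genes at the 2-cell stage included most ribosome biogenesis factors and many genes of mitochondria, the proteasome and tRNA charging. Of 77 ribosome biogenesis factors, 60 were under-captured and 2 over-captured at E1, with a median of -2.69. This family was chosen after the values were seen, and over all genes tested 30.4% were under-captured and 21.4% over-captured. *heatr3*, which in human cells brings a ribosomal protein into the nucleus, was at 2.68, 2.79 and 3.79 CPM in E1 polyA libraries and at 169, 167 and 160 CPM in E1 RiboMinus libraries. Its capture was -5.79 ± 0.17 (adjusted p = 2.44e-16). *wdr43*, a component of the small subunit processome, was at 16.2, 16.5 and 18.6 CPM against 392, 403 and 402 CPM (-4.56 ± 0.14). The RiboMinus libraries held both mRNAs at levels that varied little between replicates, and the polyA libraries held a small part of them. *rrp8* (-6.10 ± 0.45), a methyltransferase of ribosomal RNA, *ddx49* (-6.03 ± 0.35), an RNA helicase, and *nop16* (-5.03) were under-captured at E1 as well.

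The next counts are to be read against 30.4% under-captured and 21.4% over-captured over all genes tested. Of 53 mitochondrial ribosomal protein genes, 35 were under-captured and 4 over-captured at E1 (median -2.17). *mrpl24* (-5.82) and *mrps7* (-5.09 ± 0.36) were among the first, and *mrpl38* (2.09) and *mrps30* (2.03) among the second, so that subunits of one ribosome stood at both ends. Of 34 proteasome subunit genes, 21 were under-captured and 1, the ATPase gene *psmc3* (1.19), was over-captured (median -2.05). *psmc5*, another ATPase of the proteasome base, was at 2.29, 2.15 and 3.03 CPM against 53.9, 60.5 and 57.4 CPM (-4.57 ± 0.18). Of 63 nuclear genes of oxidative phosphorylation, 34 were under-captured and 6 over-captured (median -1.45). *atp5f1b*, the catalytic beta subunit of ATP synthase, was at 56.8, 62.6 and 54.4 CPM against 890, 827 and 824 CPM (-3.86 ± 0.15), while *ndufa4* was over-captured (2.93). Of 28 aminoacyl-tRNA synthetase genes, 18 were under-captured and none was over-captured (median -1.53), among them *gars1*, the glycyl-tRNA synthetase, at 4.08, 4.12 and 4.73 CPM against 120, 117 and 90.8 CPM (-4.68 ± 0.20). Translation factors were split, with 23 under-captured and 9 over-captured of 55 (median -0.59), nearer the shares of all genes tested than the groups above. Among them *eif2s2*, the beta subunit of the initiator tRNA-binding factor eIF2, was at -4.74 ± 0.23 and the elongation factor gene *eef1a1l1* at 2.23.

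Of 34 genes of the machinery that shortens and lengthens poly(A) tails, 12 were under-captured and 7 over-captured at E1 (median -0.85; 23 and 3 with library size alone), shares near those of all genes tested (30.4% and 21.4%). *cnot3*, a subunit of the CCR4-NOT deadenylase complex, was under-captured (-3.47 ± 0.17), as was *parn*, a poly(A)-specific ribonuclease, at 240, 209 and 230 CPM against 1074, 919 and 1016 CPM (-2.15 ± 0.13). *pabpc1a*, the main cytoplasmic poly(A)-binding protein, was over-captured (1.89). *tent2*, a cytoplasmic poly(A) polymerase, was under-captured at E1 (-1.28) and was the only gene of the 34 under-captured at E4 (-2.17 ± 0.17). Of 26 genes of maternal mRNP proteins and repressors, 8 were over-captured and 8 under-captured at E1. *khsrp* (1.90) and *cpeb1* (1.78 ± 0.17), which binds the cytoplasmic polyadenylation element, were over-captured. The readers of methylated adenosine *ythdf1* (-3.30) and *ythdf2* (-2.73) were under-captured. *pum3* (-3.45 ± 0.16) was under-captured too, and whether it acts as a repressor was not examined here.

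Of 13 oocyte and egg genes, 8 were under-captured and 3 over-captured at E1 (median -1.28), against 30.4% and 21.4% over all genes tested. By reads the list was not low in polyA libraries. Its 17 gene IDs together took 0.8925 to 0.954% of polyA reads and 0.4466 to 0.5004% of RiboMinus reads at E1. The members of this list named next were all under-captured. *bmp15*, an oocyte growth factor, was at 26.9, 32.4 and 31.8 CPM against 267, 264 and 232 CPM (-3.06 ± 0.29). *zp3b*, a protein of the egg envelope, had a capture of -2.56 ± 0.20, and *lhx8*, an oocyte transcription factor, of -2.94. Among 14 germ plasm genes 4 were under-captured and 3 over-captured (median 0.39), shares near those of all genes tested. *buc*, the organiser of the Balbiani body, was under-captured (-1.99 ± 0.28) and *dazl*, an RNA-binding protein of germ cells, was over-captured (2.18 ± 0.13).

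The next families had shares of calls at E1 near those of all genes tested (30.4% under-captured and 21.4% over-captured) or were split between the directions, and they are given for their members. DNA replication genes had 14 under-captured and 12 over-captured of 38 at E1 (median -0.21), with *mcm2* at -4.93 ± 0.13 and *cdc45* at 1.81 ± 0.09, although both encode components of the replicative helicase. Fanconi anaemia and recombination genes had 9 under-captured and 5 over-captured of 30, with *xrcc2*, which acts in homologous recombination, at -5.48. Kinetochore and spindle genes had 18 over-captured and 14 under-captured of 59 (median 0.22), and on library size alone 5 and 21 (median -0.33), with *nuf2*, a subunit of the NDC80 complex, at -5.26.  Genes of the RNA exosome and the SKI complex, which degrade RNA from the 3' end, had 6 under-captured and 4 over-captured of 20 (median -0.56), again near the shares of all genes tested, with *exosc4* at -4.32 and *exosc3* at -4.29, both subunits of the exosome.

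**Figure D3:**
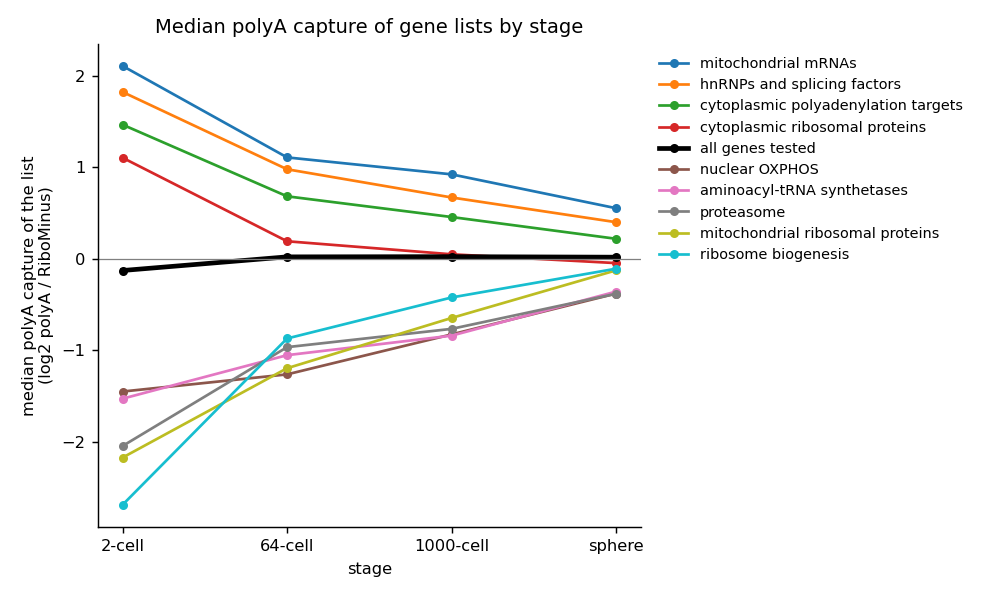
Median polyA capture (log2) of gene lists at each stage, with a line for each list and one for all 9597 genes tested. Lists that stand far above or below 0 at E1, such as splicing factors (1.82) and ribosome biogenesis factors (-2.69), lie closer to 0 at E4 (0.40 and -0.11). Splicing, tRNA synthetase and ribosome biogenesis lists were chosen after the values were seen.

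From the 2-cell to the sphere stage, capture rose for 2321 genes (24.2%) and fell for 1696 (17.7%) by at least 2-fold (interaction of library kind and stage, edgeR). With library size alone 3557 rose and 450 fell, and the median shift over all genes was 0.61, so both counts depend on the scaling. Most of the shift lay in the step from E1 to E2, in which 1510 genes rose (15.7%) and 700 fell (7.29%), against 2529 and 225 with library size alone. The largest rises in that step among genes with a symbol were those of *guf1*, a mitochondrial translation GTPase (3.88 ± 0.37), *gdi2*, a regulator of Rab GTPases (3.71 ± 1.09), and *slx9*, a ribosome biogenesis factor in yeast (3.55 ± 0.41). For *gdi2*, replicate 2 at E2 was low in both kinds of library.

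Ribosome biogenesis factors, a family chosen after the values were seen, had 58 of 77 risen and 2 fallen from E1 to E4 (median shift 1.89). Over all genes tested 24.2% rose and 17.7% fell. The family stood low at E1, and its E1 values also enter the shift with the opposite sign, so its rise is a description. *heatr3* was at 2.68, 2.79 and 3.79 CPM in polyA libraries at E1, at 25, 17.1 and 26.2 CPM at E2, at 56.3, 51 and 60.6 CPM at E3, and at 87.3, 83.0 and 103 CPM at E4. In RiboMinus libraries it was at 169, 167 and 160 CPM at E1 and at 149, 134 and 160 CPM at E4. Its polyA level climbed at each step while its RiboMinus level at E4 overlapped that at E1, and its capture rose by 5.09 ± 0.21 (adjusted p = 2.2e-13) to -0.70. *ccdc86*, a nucleolar protein, went from 1.91, 1.87 and 2.27 CPM to 99.2, 71.6 and 85.1 CPM in polyA libraries, with RiboMinus at 118, 97.1 and 100 CPM and then 105, 104 and 98.1 CPM, a rise of 5.47 ± 0.26 (adjusted p = 1.06e-12). Capture rose by 5.77 ± 0.54 for *rrp8*, by 5.67 ± 0.43 for *ddx49* and by 5.41 for *dscc1*, which loads the sliding clamp, and *bif1.2* had the largest fitted rise among genes with a symbol. *bif1.2* had no read in the E1 polyA libraries and 2.58, 3.65 and 2.08 CPM in the E1 RiboMinus libraries, so its fitted shift is no bound.

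Several other groups that stood low at E1 gained capture, and their counts are to be read against 24.2% risen and 17.7% fallen over all genes tested. The E1 values that place a group low also enter its shift with the opposite sign. Of all 2919 genes under-captured at E1, 651 (22.3%) were so at E4. The rises of these groups are therefore a description and no test of the groups. Among mitochondrial ribosomal protein genes 30 of 53 rose and 5 fell (median shift 1.72), among proteasome subunits 17 of 34 rose and none fell (1.09), among aminoacyl-tRNA synthetases 11 of 28 rose and 1 fell (0.85; 19 and none with library size alone), and among genes of the poly(A) machinery 14 of 34 rose and 2 fell (0.84). Nuclear oxidative phosphorylation genes were split, with 21 of 63 risen and 8 fallen (0.44), as were oocyte and egg genes, with 5 of 13 risen and 3 fallen (0.71; 9 and 2 with library size alone). *psmc5* was at 39.4, 30.9 and 40.9 CPM in polyA and 59.6, 44.0 and 50.3 CPM in RiboMinus libraries at E4, a rise of capture of 4.10. *gars1* rose by 4.49, *eif2s2* by 3.99, *mcm2* by 3.66, *pum3* by 3.57, *cnot3* by 3.05 and *parn* by 1.78. *bmp15* (1.75), *zp3b* (1.80) and *buc* (1.69) rose as well, and *bmp15* remained under-captured at E4 (-1.31).

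Over-captured groups lost capture, to be read against 17.7% fallen and 24.2% risen over all genes tested. Here too the E1 values that place a group high enter its shift with the opposite sign. Of all 2049 genes over-captured at E1, 162 (7.91%) were so at E4, so these falls are a description. Among hnRNPs and splicing factors 35 of 57 fell and 2 rose (median shift -1.31), among cytoplasmic ribosomal proteins 44 of 68 fell and 1 rose (-1.12), among mitochondrial mRNAs all 13 fell (-1.63), and among cytoplasmic polyadenylation targets 8 of 11 fell (-1.36). With library size alone the falls numbered 9, 1, 8 and 2, and the median shifts stayed below 0 at -0.72, -0.54, -1.04 and -0.77. Falls that passed 2-fold on both scales included those of *sec24c* (-1.61 and -1.02), *hmga1a* (-1.67), *grip2* (-1.90), *khsrp* (-1.62) and *mt-co1* (-1.75). The falls of *hnrnpm* (-1.31), *ccnb1* (-1.38) and *nanog* (-1.08) did not pass 2-fold with library size alone (-0.72, -0.79 and -0.49), and that of *nanog* was -0.97 without replicate 1 of the E1 polyA libraries.

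A small set of genes went from over-captured to under-captured. Between E1 and E4, 31 genes did so, 1.51% of the 2049 over-captured at E1 and 3.65% of the 849 under-captured at E4. Among them were the genes of mitosis *bub3*, *top2a*, *cenpe*, *aurkb*, *kif15* and *numa1*, the replication genes *cdc45* and *gins2*, and *iqgap3*, *sesn2* and *fmn2b*. The other way went 6 genes (0.21% of the 2919 under-captured at E1), *glcci1*, *rwdd1*, *rhbdf1*, *eif4e2*, *ponzr1* and *ubn2b*. These switches were counted on the TMM scale only. With library size alone 946 genes in place of 2049 were over-captured at E1. Both sets were named after their values were seen. *bub3*, a protein of the spindle checkpoint, was at 381, 386 and 340 CPM in E1 polyA libraries and at 15.5, 12.5 and 19.2 CPM in E2 polyA libraries, while RiboMinus libraries held 148, 151 and 107 CPM at E1 and 138, 152 and 119 CPM at E2. The polyA level dropped to a small part of itself and the RiboMinus groups overlapped. Capture of *bub3* was 1.45 ± 0.21 at E1 (adjusted p = 2.17e-06; 0.89 and so under 2-fold with library size alone), -3.13 at E2, -3.13 at E3 and -3.46 ± 0.24 at E4, a fall from E1 to E2 of -4.58 ± 0.31 (adjusted p = 6.04e-10).

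*top2a*, the topoisomerase that untangles chromosomes in mitosis, was at 1989, 2727 and 2300 CPM in E1, 211, 268 and 285 CPM in E2, and 62.9, 92.3 and 84.5 CPM in E4 polyA libraries. In RiboMinus libraries it was at 881, 1132 and 934 CPM, 850, 992 and 898 CPM, and 583, 726 and 669 CPM. Its capture went from 1.25 ± 0.16 (0.70 with library size alone) to -3.04, a fall of -4.30 ± 0.23 (adjusted p = 5.39e-12). The formin gene *fmn2b* was at 1247, 1177 and 1301 CPM in E1 and 107, 153 and 156 CPM in E2 polyA libraries, against 163, 215 and 210 CPM and 309, 277 and 343 CPM in RiboMinus libraries, so its polyA level dropped while its RiboMinus libraries stood above those of E1 with no overlap (unadjusted p = 0.000399, adjusted p = 1, edgeR). *cdc45* fell by -3.66 ± 0.13 from E1 to E4, from 772, 775 and 797 CPM to 40.3, 45.8 and 49.8 CPM in polyA and from 203, 230 and 235 CPM to 151, 183 and 155 CPM in RiboMinus libraries. *kif11*, the kinesin that separates spindle poles, was evenly captured at E1 (606, 597 and 754 CPM against 730, 764 and 724 CPM) and under-captured at E2 (92.8, 102 and 133 CPM against 758, 817 and 743 CPM), a fall of -2.65 ± 0.20.

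Among kinetochore and spindle genes as a whole 23 of 59 fell and 13 rose from E1 to E4 (median shift -0.49), and with library size alone 13 fell and 22 rose (median 0.10), so the direction of the family turns with the scaling while *bub3*, *top2a* and *kif11* fell by more than 2-fold on both scales. *iqgap3* and the deoxycytidine kinase gene *dck* had fitted falls of -4.56 ± 0.72 and -4.51 ± 0.82. Replicate 2 of *iqgap3* was low in both kinds of library at E1, E3 and E4. *dazl* moved in steps: it was at 1163, 1028 and 983 CPM, 432, 508 and 380 CPM, 243, 195 and 234 CPM, and 94.9, 96.2 and 110 CPM in polyA libraries from E1 to E4, against 226, 226 and 247 CPM at E1 and 142, 186 and 159 CPM at E4 in RiboMinus libraries. Its capture was 2.18, 0.80, 0.06 and -0.70, a fall of -2.88 ± 0.18 (adjusted p = 4.24e-11).

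**Figure D4:**
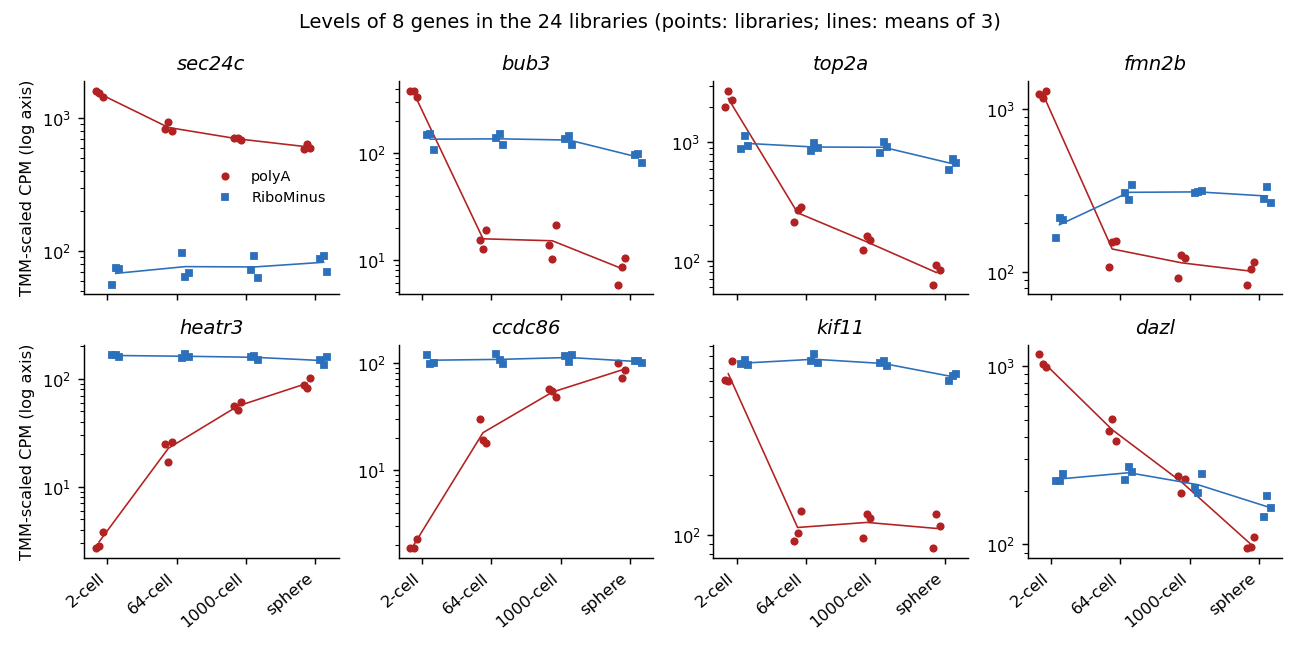
Levels (TMM-scaled CPM, log axis) of 8 genes at E1 to E4, with a point for each library and lines through the means of 3 in polyA and in RiboMinus libraries. The polyA line of *heatr3* and *ccdc86* climbs to the RiboMinus line, that of *bub3* and *top2a* drops below it between E1 and E2, and the RiboMinus lines change less.

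The shifts were seen on the polyA side. In polyA libraries the level of 1612 genes (16.8%) rose and that of 777 (8.1%) fell from E1 to E2 (2676 and 273 with library size alone). In RiboMinus libraries 0 genes rose and 0 fell in that step (edgeR and DESeq2), with 269 at an unadjusted p under 0.05. From E2 to E3 the polyA level of 151 genes rose and of 11 fell, and 0 and 0 changed in RiboMinus libraries, with 257 at an unadjusted p under 0.05. Both 269 and 257 are fewer than that threshold gives on average when no gene changes, so the test was conservative for RiboMinus levels in these steps. From E1 to E4 the polyA level of 2453 genes (25.6%) rose and of 1759 (18.3%) fell (3630 and 478 with library size alone), and the RiboMinus level of 44 (0.458%) rose and of 9 (0.0938%) fell (81 rose with a filter at 1 CPM). Without replicate 1 of the E4 RiboMinus libraries 25 rose, and without replicate 2 of the E1 RiboMinus libraries 5 fell. The RiboMinus libraries were shallower than the polyA libraries, and with all libraries thinned to the depth of the smallest, polyA levels rose for 1596 and fell for 652 genes and RiboMinus levels for 0 and 0 from E1 to E2, while from E1 to E4 RiboMinus levels rose for 45 and fell for 4. In embryo pools of this kind, fewer cells of a type and less RNA per cell cannot be told apart.

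**Figure D5:**
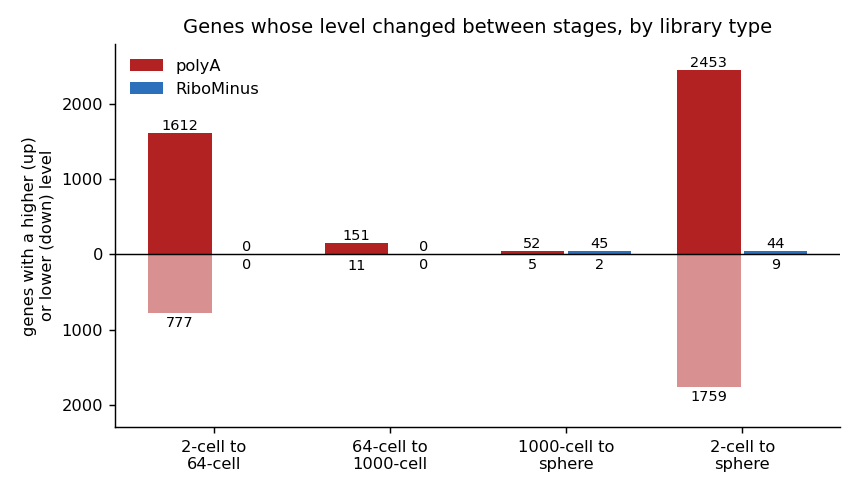
Number of genes whose level rose (dark) or fell (pale) by at least 2-fold at each step, in polyA and in RiboMinus libraries. The polyA bars reach 1612 and 777 genes in the first step, where the RiboMinus bars are at 0, and the 2 kinds of library come close only from E3 to E4 (52 and 45 genes risen).

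Between the later stages few genes changed capture. From E2 to E3 capture rose for 63 genes (0.656%) and fell for 2 (0.0208%). The first count was 27 without replicate 2, 99 without replicate 1 and 105 without replicate 3 of the E2 polyA libraries, 38 and 33 without replicates 2 and 3 of the E3 polyA libraries, 116 with library size alone, and 147 with the replicate number as a block, and the second count was 1 with library size alone. *timm29*, a subunit of the mitochondrial import machinery, rose by 1.77 ± 0.32 (adjusted p = 0.00773) and *ddx49* by 1.79 ± 0.37 (adjusted p = 0.0179). *airim* had the largest rise (1.97 ± 0.50, adjusted p = 0.0436), a call lost when any of 17 of the libraries was left out. The 2 that fell were *sesn2*, a stress-induced sestrin, and *cdc45*. *sesn2* went from 93.9, 87.8 and 76.1 CPM to 34.6, 34.3 and 38.6 CPM in polyA and from 102, 112 and 107 CPM to 108, 108 and 104 CPM in RiboMinus libraries (-1.26 ± 0.15, adjusted p = 0.000361). The fall of *cdc45* in this step was -1 (adjusted p = 0.000361), at the edge of 2-fold, and was under 2-fold (to -0.95) in 18 of the fits that left out a library and with the replicate number as a block.

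From E3 to E4 capture rose for 9 genes (0.0938%) and fell for 1 (0.0104%), and with the replicate number as a block for 44 and 12. Leaving out replicate 2 of the E2 or of the E4 polyA libraries gave 22 and 18 risen genes, and leaving out any of 10 other libraries gave 3 to 5. *gtpbp4*, a GTPase of the large ribosomal subunit's assembly, was at 29.7, 26.6 and 26.8 CPM at E3 and 50.8, 45.4 and 49.8 CPM at E4 in polyA libraries (1.17 ± 0.20, adjusted p = 0.00877). The calls for *atp5pd* (1.29) and *ogfod1* (1.26, both adjusted p = 0.0273) were lost when any of 10 libraries was left out. The fall was that of *sh2d5*, from 366, 346 and 343 CPM to 115, 165 and 136 CPM in polyA libraries, with RiboMinus at 289, 303 and 298 CPM and then 288, 268 and 267 CPM (-1.23 ± 0.13, adjusted p = 0.000103).

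Genes first transcribed at genome activation appeared in both kinds of library together. From E3 to E4 the level of 52 genes (0.542%) rose in polyA and of 45 (0.469%) in RiboMinus libraries (114 and 77 with a filter at 1 CPM), and 39 were in both lists (75% of the first and 86.7% of the second). Without replicate 1 of the E4 RiboMinus libraries the second count was 22. The level of 5 genes (0.0521%) fell in polyA and of 2 (0.0208%) in RiboMinus libraries, with 0 in both lists. Of 46 gene IDs of the first zygotic wave, 11 passed the filter, and 10 of these rose in both from E3 to E4. A gene near 0 before sphere can pass only through the sphere libraries, so these rises were fixed by the filter and are given as a description. From E1 to E4 the median change of the 11 was 6.76 in polyA and 6.99 in RiboMinus libraries. *klf17*, a Krüppel-like transcription factor, was at 0.694, 0.252 and 1.2 CPM in E3 polyA libraries, and at E4 at 118, 67.1 and 72.1 CPM in polyA against 56.3, 54.2 and 25.3 CPM in RiboMinus libraries (capture 0.92, adjusted p = 0.0871, and 0.93, adjusted p = 0.000903, with the replicate number as a block). *vox*, a ventralising repressor, was at 34.3, 20.6 and 12.9 CPM against 49.2, 29.8 and 21.8 CPM at E4 (-0.57, adjusted p = 0.563), and *irx7* at 59.5, 35.5 and 27.9 CPM against 45.9, 27.8 and 22.5 CPM (0.36, adjusted p = 0.609). For *vox* and *irx7* the groups overlapped, but among libraries of the same number *vox* was lower and *irx7* higher in polyA in all 3, with adjusted p = 0.0515 and 0.188 with the replicate number as a block (edgeR). At E4 0 of the 11 genes was over- or under-captured by 2-fold.

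The precursors of miR-430, the microRNA family that clears maternal mRNAs in zebrafish, appeared at the same stages and almost only in RiboMinus libraries. Of 330 microRNA gene IDs, 5 passed the filter, all of this family and through the E4 RiboMinus libraries, so their under-capture was fixed by the filter. They had no read in any library at E1 and E2, 0 reads in polyA and 42 in RiboMinus libraries at E3, and 45 and 2983 reads at E4. *dre-mir-430a-13* was at 1.81, 0.794 and 4.14 CPM in RiboMinus libraries at E3, and at E4 at 0.466, 0 and 0.287 CPM in polyA against 108, 104 and 115 CPM in RiboMinus libraries, 454.7 times lower (counting interval 219.8 to 1134). The copies of this cluster are nearly identical, so the split of reads between them is uncertain.

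Some genes kept their capture from cleavage to genome activation. Of the 2049 genes over-captured at E1, 162 (7.91%, and 77.1% of those at E4) were over-captured at E4, and of the 2919 under-captured at E1, 651 (22.3%, and 76.7% of those at E4) were under-captured at E4. Over the 4 stages 4237 genes (44.2%) were never called, 1495 (15.6%) were over-captured only at E1, 1371 (14.3%) were under-captured only at E1, 639 (6.66%) were under-captured at all 4 and 143 (1.49%) over-captured at all 4. The mitochondrial aminoacyl-tRNA synthetase genes *wars2* (-4.92 and -3.84) and *ears2* (-4.56 and -3.19) were under-captured at E1 and at E4. At the other end, *sec24c* and *taf15* (2.62 at E4) were over-captured at both stages. *epoa*, which encodes erythropoietin, was over-captured at E2 (3.35 ± 0.83), E3 (3.64) and E4 (2.83), the last of these calls being lost without replicate 3 of the E4 RiboMinus libraries. *r3hdm1* was over-captured at E2 (3.05), the adenosine kinase gene *adk* (ENSDARG00000039429) at E3 (2.90), and *mfsd8*, a lysosomal membrane protein, at E4 (3.07 ± 1.07, adjusted p = 0.0322), a call lost without any 1 of the E4 RiboMinus libraries.

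Capture at E1 was uneven among genes of middle and of high abundance, ranked by their mean level in RiboMinus libraries. Of the 1919 genes at 15.55 to 32.85 CPM 16% were over-captured and 34.55% under-captured (median -0.37). Of the 1920 with the highest level the shares were 30.3% and 27.2% (median 0.22). Of the 1920 with the lowest level (1.03 to 15.55 CPM) they were 16.4% and 29.9% (median -0.24). A gene under the filter in RiboMinus libraries could pass only through polyA libraries, so the shares of this lowest set are given as a description. The RiboMinus level is also the denominator of capture, so no trend with level is read from these shares.

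The same comparison in embryos of *ski7* mutants, which lack full-length Ski7, an adaptor between the Ski complex and the RNA exosome, used 24 other libraries of the same stages. Of the wild-type calls at E1, 1708 of 2049 over-captured genes (83.4%, and 88.7% of those in mutants) and 2488 of 2919 under-captured genes (85.2% and 86.6%) were also called there, and at E4 136 (64.8% and 81.4%) and 652 (76.8% and 83.2%). At E2 218 of 533 over-captured genes (40.9% and 82%) and 1444 of 1787 under-captured genes (80.8% and 84.5%) were called in both. At E3 they were 117 of 325 (36% and 88%) and 959 of 1249 (76.8% and 82.3%). Wild-type over-captured genes were thus called least often in mutants at E2 and E3, where mutants had 266 and 133 over-captured genes in all. Their direction was nearly always the same: 530 of the 533 at E2 (99.4%) and 321 of the 325 at E3 (98.8%) had a capture above 0 in mutants. The lower shares are therefore shares of calls and not of direction. The mean capture over the 4 stages was higher in mutants for 30 genes (0.295% of 10177) and lower for 25 (0.246%). The lower count was 39 with the replicate number as a block, and 43 and 49 without the polyA libraries of mutant replicate 1 or 3. The largest difference was that of the *hnrnpk* gene ENSDARG00000007034, a pre-mRNA-binding protein, with a mean capture of -3.64 in wild type and 0.08 in mutants (3.72 ± 0.40, adjusted p = 1.81e-08). *actr8*, a chromatin remodelling subunit (2.05 ± 0.09, adjusted p = 3.95e-18), *igf2bp3*, an mRNA-binding protein (1.29 ± 0.09), and the ribosome assembly factors *utp23* (1.25) and *eif6* (1.15) were higher in mutants, and *rpz2* (-2.85 ± 0.49, adjusted p = 0.000109), *rnf121* (-2.22), *gphn* (-1.63), *cat* (-1.46) and *mt-nd6* (-1.03) were lower.

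In oocytes of stage IV-V the pattern differed from that at E1, with which it shares no library. There 1170 (11.2%) of 10422 genes were over-captured and 1568 (15%) under-captured, and from O4 to E1 it was higher for 2862 genes (27.5%; 1640 with library size alone) and lower for 2618 (25.1%). Nuclear oxidative phosphorylation genes were over-captured in oocytes (65 of 71, none under-captured, median 1.58), and 56 of 71 had a lower capture at E1 and none a higher one. Mitochondrial ribosomal proteins (36 of 60 over-captured in oocytes, 48 lower and 1 higher at E1) and proteasome subunits (13 of 37, 29 lower and none higher) showed the same turn. *atp5f1b* had a capture of 1.51 in oocytes and was lower by -5.16 ± 0.20 at E1 (adjusted p = 2.18e-16), and the egg envelope gene *zp3b* of 0.90 and -3.24. Cytoplasmic ribosomal proteins were over-captured in oocytes (69 of 72, median 1.67), with *rps14* at 2.05 and a difference of 0.29 at E1. In the other direction hnRNPs and splicing factors were higher at E1 (42 of 57, 3 lower), *hnrnpm* by 3.01 ± 0.11 from 0.38, and *sec24c* by 4.42 from 0.29. *pou5f3* was under-captured in oocytes (-2.79) and higher by 3.91 ± 0.18 at E1 (adjusted p = 2.82e-15), and *nanog* was at -0.52 in oocytes and higher by 2.41. *heatr3* had a capture of -0.72 and *rrp8* of -0.68 in oocytes, with differences of -4.84 and -5.19 at E1. *bub3* was over-captured in oocytes (1.08) as at E1 (difference 0.59, adjusted p = 0.0623).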

How the data were processed

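The authors depleted rRNA or selected poly(A) RNA with Lexogen kits, made strand-specific libraries (NEBNext Ultra Directional), trimmed reads, aligned them to GRCz11 with HISAT2 2.1.0 and deposited HTSeq 0.9.1 counts of uniquely mapped reads per Ensembl gene, not normalized (versions from the submitters' processing notes). Reads on no feature (11.4 to 11.9% in polyA, 14.3 to 20.7% in RiboMinus libraries) were left out. Of 31466 gene IDs, 28965 (92.1%) matched a symbol, printed in lower case.

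Here the 24 libraries were fitted together in edgeR 4.0.16 (R 4.3.3, limma 3.58.1) with TMM scaling, 8 groups and the quasi-likelihood test, on genes at 10 CPM or more in at least 3 libraries. A call needed a Benjamini-Hochberg adjusted p under 0.05 over all genes tested and a 2-fold difference. Shifts of capture were interaction contrasts. Error terms after ± are SE. Levels per library are TMM-scaled CPM. Comparisons with mutants and oocytes were fitted over 48 and 30 libraries. The fits were run on simulated data in which a small set of genes differed between the kinds of library, equally often in each direction. Far more genes differed at E1, so the simulation could not test the choice of scaling. Alternatives were other scaling, filters, DESeq2 1.42.0, thinning, a replicate block and leaving out each library. Named genes were list members, the 3 largest calls per stage and direction, and the largest shifts. Members and lists were chosen with earlier results of these data known, and 7 families (ribosome biogenesis, spindle, cyclins, splicing, tRNA synthetases, recombination, microRNAs) after the values were seen.

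Same-numbered polyA and RiboMinus libraries deviated together from their group means (r 0.5225 to 0.7703 in 12 of 12 pairs, each highest with its own number, other pairs -0.5132 to -0.0507), and this pairing comes from the data, not the labels. Deviations cancel out within a group, so other pairs are negative on average wherever same-numbered pairs are positive, and they add no support. The sources used here do not say that replicates came from separate clutches, so p-values measure the spread between these samples. Counting intervals and floors cover counting error only. The deposited transcript abundance tables were not used, and some named genes are not reported here.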

Additional observations from a re-analysis of the deposited data

Results flagged for a closer look

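Capture of polyA RNA differed between stages by a test of the difference itself, the interaction of library kind and stage in edgeR. It rose for 1510 genes and fell for 700 from 2-cell to 64-cell, rose for 63 and fell for 2 from 64-cell to 1000-cell, rose for 9 and fell for 1 from 1000-cell to sphere, and rose for 2321 and fell for 1696 from 2-cell to sphere. The genes with the largest rises from 2-cell to sphere were *bif1.2* (6.53), *rrp8* (5.77), *ddx49* (5.67), *ccdc86* (5.47), *dscc1* (5.41) and *heatr3* (5.09). The largest falls were those of a *metazoa_srp* copy (ENSDARG00000109767, -5.63), *bub3* (-4.91), *iqgap3* (-4.56), *dck* (-4.51), *top2a* (-4.30) and *fmn2b* (-4.20). The values of *bif1.2* and of the *metazoa_srp* copy are fitted against groups with no read and depend on the prior count. The mean capture differed between genotypes for 30 genes that were higher and 25 that were lower in *ski7* mutants, and between 2-cell embryos and stage IV-V oocytes for 2862 that were higher and 2618 that were lower.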

How the results depend on the processing

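The checks of single genes covered capture and its shifts in wild-type embryos for 116 named genes. Differences from mutants and oocytes, level changes and some named genes, such as *cenpe* and *numa1*, were not among them. Of 2724 values under other settings 2638 stayed called or stayed uncalled, 54 lost a call and 32 gained one. Of the values called in either fit 0 changed sign, and sign changes of values called in neither were not counted. With libraries left out, 7480 of 7602 stayed called or stayed uncalled, 99 lost a call and 23 gained one. Depth limits the RiboMinus side: its libraries held fewer reads, so a level change between stages needs to be larger there to be called. Alternatives for level changes were chosen after seeing the data. The causes of the changes below were not tested, apart from fewer or more genes or samples entering a fit.

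Without the 2-fold minimum, over- and under-captured genes numbered 3368 and 3937 at 2-cell, 2724 and 2924 at 64-cell, 2079 and 2355 at 1000-cell and 1411 and 1792 at sphere. Capture rose for 2342 and fell for 2096 genes in the first step, 159 and 53 in the next, 20 and 9 in the last, and fell for 2730 from 2-cell to sphere. PolyA levels rose for 3008 and fell for 2762 from 2-cell to 64-cell, rose for 227 and fell for 134 from 1000-cell to sphere, and fell for 3275 from 2-cell to sphere, where RiboMinus levels fell for 56 (15 from 1000-cell to sphere). Capture was higher for 511 and lower for 420 genes in *ski7* mutants.

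With library size only, 946 genes were over-captured at 2-cell, capture rose for 2529 and fell for 225 in the first step, 116 and 1 in the next, and 3557 and 450 from 2-cell to sphere. PolyA levels rose for 2676 and fell for 273 from 2-cell to 64-cell and fell for 478 from 2-cell to sphere, and 1640 genes were higher at 2-cell than in oocytes. With the size factors of DESeq2 the over- and under-captured genes at 2-cell numbered 2301 and 2778.

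With a filter at 1 CPM, 804 genes were over-captured at 64-cell, 38 rose from 64-cell to 1000-cell, RiboMinus levels rose for 81 from 2-cell to sphere and 77 from 1000-cell to sphere, and polyA levels for 114 in that step. With no filter these were 928, 24, 84, 82 and 117, with 4 capture rises and 1 RiboMinus fall from 1000-cell to sphere. The DESeq2 Wald test gave 1067 capture falls in the first step, 27 rises and 2 falls in the last, 16 RiboMinus falls from 2-cell to sphere and 9 polyA falls from 1000-cell to sphere. Thinned to the smallest library, capture rose for 29 and 4 genes in the later steps, and RiboMinus levels fell for 4 from 2-cell to sphere and 0 from 1000-cell to sphere, and polyA levels for 12. With the replicate number as a block, 147 genes rose from 64-cell to 1000-cell, 44 rose and 12 fell from 1000-cell to sphere, and 39 were lower in mutants; it moved no other count over all genes by over 1.5 times.

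With each library left out in turn, over-captured genes numbered 1921 to 2051 at 2-cell, 489 to 646 at 64-cell, 304 to 367 at 1000-cell, 175 to 302 at sphere, and under-captured genes 2914 to 3016 at 2-cell, 1733 to 1839 at 64-cell, 1199 to 1280 at 1000-cell, 792 to 883 at sphere. Capture rose for 1425 to 1620 genes from 2-cell to 64-cell, 27 to 105 genes from 64-cell to 1000-cell, 3 to 22 genes from 1000-cell to sphere, 2297 to 2395 genes from 2-cell to sphere. Falls over the same steps numbered 618 to 886, 1 to 3, 1 to 1, 1572 to 1716. PolyA levels rose for 1588 to 1704 and fell for 694 to 831 from 2-cell to 64-cell, 37 to 61 and fell for 4 to 10 from 1000-cell to sphere, 2425 to 2501 and fell for 1636 to 1760 from 2-cell to sphere. RiboMinus levels rose for 0 to 0 and fell for 0 to 0 from 2-cell to 64-cell, 22 to 46 and fell for 0 to 5 from 1000-cell to sphere, 25 to 44 and fell for 5 to 13 from 2-cell to sphere. Capture was higher in mutants for 21 to 44 and lower for 17 to 49, and higher at 2-cell than in oocytes for 2761 to 2904 and lower for 2521 to 2629. Without replicate 2 of the sphere polyA libraries polyA levels fell for 10 from 1000-cell to sphere, while RiboMinus levels fell for 1, 0 and 5 in that step without 1000-cell RiboMinus replicate 2 or sphere RiboMinus replicates 1 or 2.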

Other observations

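Genes without an established name were counted in a wider set and in a part of it. Of 1008 tested genes named only after a clone or locus or without a symbol, 158 were over-captured and 406 under-captured at 2-cell (median -0.60 against -0.13 over all genes tested), and 24 and 181 at sphere (median -0.12 against 0.02). Over all genes tested 21.4% were over-captured and 30.4% under-captured at 2-cell, and 2.19% and 8.85% at sphere. Of the 207 gene IDs among the 1008 with no symbol in the tables used, 30 were over-captured and 62 under-captured at 2-cell and 2 and 38 at sphere (median -0.26), among them ENSDARG00000080337, the gene with most reads in every RiboMinus library. The under-captured share of the 207 at 2-cell was near that of all genes tested. RiboMinus levels from 2-cell to sphere rose for 17 of the 1008, 9 of them among the 207, against 0.458% over all genes tested. The difference of either set from the other genes was not tested.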
